A study of Mus musculus with 25 samples.

Results

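The Bcl2 family decides whether a cell keeps its mitochondrial outer membrane intact, and 10 of its genes were examined here among 26180 curated RefSeq genes: the BH3-only genes Pmaip1, Bbc3, Bcl2l11, Bid and Bad, the effectors Bax and Bak1, and the pro-survival genes Bcl2, Bcl2l1 and Mcl1. The genes were taken by name and located on the mm10 assembly. A promoter was the stretch 1 kb on each side of the transcription start site (TSS) of every curated transcript, and a locus was the gene body with 50 kb on each side. Of 17106 regions called for Spin1 in the series, 44 fell in these loci, as did 70 of 30763 called for H3K4me3.

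The peaks came from chromatin immunoprecipitation with sequencing (ChIP-seq) in primary myoblasts, cultured muscle precursor cells that were purified by preplating from limb muscle of C57BL/6 mice (C57BL/6 N in the study's methods) at 10 days of age. No knockout allele or treatment is given for these cells, and both antibodies were used on the same kind of cell. There was 1 library with an antibody against Spin1 and 1 with an antibody against H3K4me3, whose antibody entry in the labels reads H3K4me although the sample is named H3K4me3. With 1 library per antibody there was no replicate check and no test between them was possible, and the number of mice pooled is not given in the sources used here. The RNA-seq samples of the series, which compare muscle with and without Spin1, were not analysed here, so nothing below measures expression.

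Spin1 (Spindlin1) is a chromatin reader whose Tudor-like domains bind histone H3 trimethylated at lysine 4 (H3K4me3), a mark of active and poised promoters that is placed above all on CpG-rich sequence. In the Bcl2 family, Bax and Bak1 form the pores that release cytochrome c, the pro-survival proteins hold them in check, and the BH3-only proteins relieve that check in response to stress, loss of survival signals or death receptors. Several BH3-only genes are known for being switched on at the level of transcription, Pmaip1 and Bbc3 by p53 and Bcl2l11 by forkhead factors, whereas Bid and Bad are known for control of the protein by cleavage and phosphorylation.

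The cell label was checked against marker genes. All 8 myoblast markers, such as Myod1, Pax7 and Des, had both peaks at the promoter, as did 50.6% of all curated genes. None of the 4 endothelial and 4 blood markers had a Spin1 peak, although 3 and 1 of them had an H3K4me3 peak, and the liver and adipocyte markers had neither. The 4 fibroblast markers had both peaks. A share of fibroblasts in the culture cannot be told apart from promoters that myoblasts hold in the same state, and its part in the peaks of the Bcl2 family was not tested.

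All 10 genes had a Spin1 peak at the promoter, all 10 had an H3K4me3 peak there, and in all 10 the widest Spin1 promoter peak lay wholly inside an H3K4me3 peak. Over all curated genes, 50.7% had a Spin1 peak at the promoter, 61.9% an H3K4me3 peak and 50.6% both, and 92.0% of the genes with Spin1 had it wholly inside H3K4me3. Over protein-coding genes only, 56.7% had both. The 10 genes have 27 curated transcripts from 16 distinct start sites, and each of the 16 sites lay inside a Spin1 peak and an H3K4me3 peak. The genes were chosen with earlier results of these data known, so the count of 10 is a description. Pro-survival genes, effectors and BH3-only genes were thus not separated by whether Spin1 was called at the promoter. When the center of the peak, rather than any part of it, had to lie in the promoter window, 8 genes kept Spin1 and 6 kept H3K4me3. Bax and Bcl2l1 then dropped out for Spin1, and Bbc3, Bax, Bcl2 and Mcl1 for H3K4me3. Each of these centers lay after the RefSeq Select start, outside every window of the gene. Width alone did not decide this, since the H3K4me3 peak of Bcl2l1, 8053 bp wide, was kept.

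**Figure D1:**
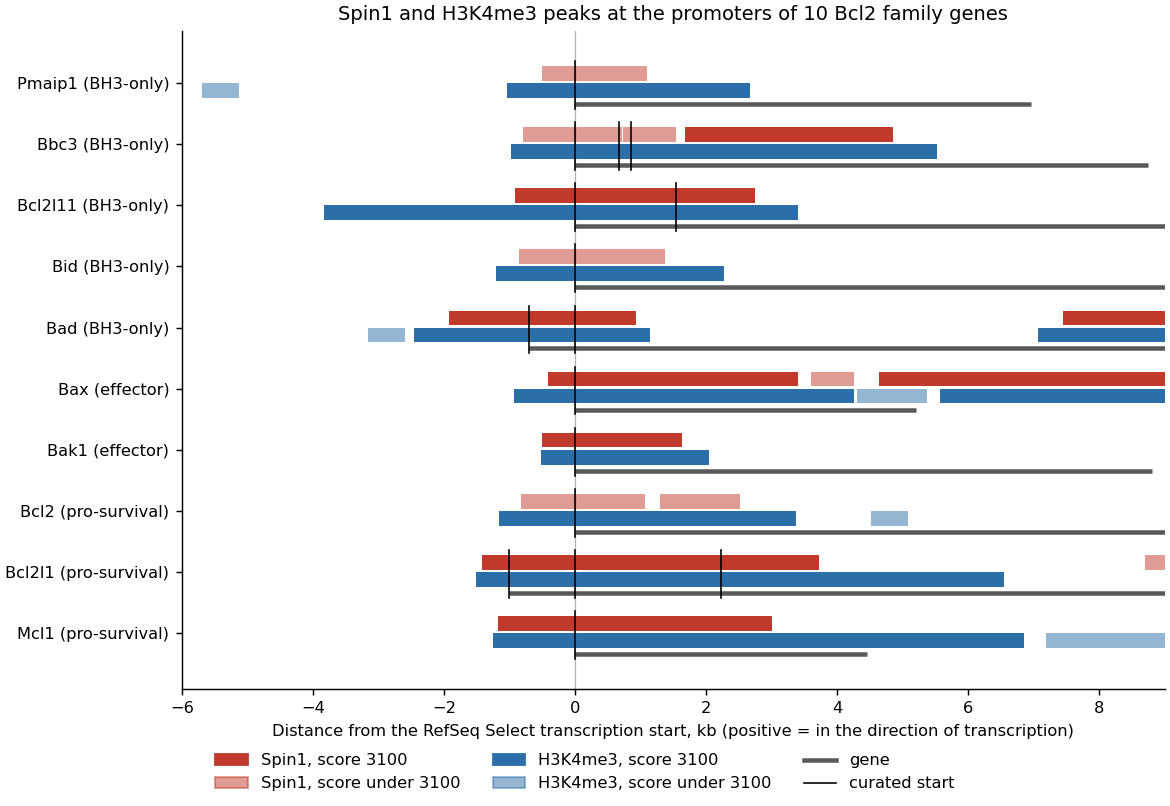
Peaks around the RefSeq Select transcription start of each of the 10 genes, from 6 kb before to 9 kb after it in the direction of transcription. Red bars are Spin1 peaks and blue bars H3K4me3 peaks (pale bars have a score under 3100), grey lines are genes and black ticks are curated starts. Every tick is crossed by a red and a blue bar, the red bar lies within the blue one at each promoter, and at Bbc3 the full red bar begins after the last tick.

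The sequences before these starts differed widely in CpG content, and a set is shown to make that visible. RefSeq's promoter table for GRCm38.p6 held 15 promoters of 9 of the genes, all but Pmaip1, each with 250 bases before and 50 after the start. The median ratio of observed to expected CpG was 0.77 in these 15 and 0.38 in all 32851 promoters of the table, and the 15 are not independent, because Bbc3 has 3, and Bcl2l1 has 3, with some overlap of the windows at Bbc3. All 15 starts lay inside Spin1 and H3K4me3 peaks, while the promoters of the table were not restricted in this way. No value for promoters with H3K4me3 alone was computed, here or for the motifs below, so the difference is not shown to be particular to these genes. Bcl2l1 covered the whole range on its own, with ratios of 0.06, 0.61 and 1.07 at starts that a single Spin1 peak of 5134 bp contained. The 150 bases before each of its starts are printed 5′ to 3′ on the coding strand with every CpG in capitals, followed by those of Bbc3 and Bcl2, which are CpG-rich, and of Bak1, which has a ratio of 0.44.
Bcl2l1, inner start, chr2:152828490-152828639, minus strand: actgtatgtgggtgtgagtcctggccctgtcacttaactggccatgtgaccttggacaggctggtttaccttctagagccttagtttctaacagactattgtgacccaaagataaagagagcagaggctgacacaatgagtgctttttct
Bcl2l1, RefSeq Select start, chr2:152830718-152830867, minus strand: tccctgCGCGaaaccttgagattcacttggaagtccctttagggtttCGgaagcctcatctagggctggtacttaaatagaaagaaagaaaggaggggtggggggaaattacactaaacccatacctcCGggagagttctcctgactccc
Bcl2l1, outer start, chr2:152831729-152831878, minus strand: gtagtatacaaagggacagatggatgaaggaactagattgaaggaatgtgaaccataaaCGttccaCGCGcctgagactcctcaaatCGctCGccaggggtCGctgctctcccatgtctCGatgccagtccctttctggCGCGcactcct
Bbc3, RefSeq Select start, chr7:16309433-16309582, plus strand: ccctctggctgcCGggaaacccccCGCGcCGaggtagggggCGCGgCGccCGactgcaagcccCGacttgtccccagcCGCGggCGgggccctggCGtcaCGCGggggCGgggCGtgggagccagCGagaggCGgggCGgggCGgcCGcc
Bcl2, RefSeq Select start, chr1:106714291-106714440, minus strand: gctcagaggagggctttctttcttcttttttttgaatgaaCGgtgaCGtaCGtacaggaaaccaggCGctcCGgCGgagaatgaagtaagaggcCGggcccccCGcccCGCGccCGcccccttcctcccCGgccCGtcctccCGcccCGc
Bak1, RefSeq Select start, chr17:27028628-27028777, minus strand: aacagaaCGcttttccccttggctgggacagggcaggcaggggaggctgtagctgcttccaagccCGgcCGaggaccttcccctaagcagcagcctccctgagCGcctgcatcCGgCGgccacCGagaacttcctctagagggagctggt
These stretches held 0, 4, 9, 22, 15 and 7 CpG in the order printed. The GC box GGGCGG, searched on both strands of the 300 bases, was present in 10 of the 15 promoters, against 35.7% of all promoters in the table. It was matched 7 times at Bcl2 and 5 times at the Bbc3 start shown, and not at all at Bak1 or at any of the 3 starts of Bcl2l1. CCAAT was found in 4 of the 15 (37.4% of all), TATAAA in none (13.6%), the E-box CAGCTG in 1, at Bcl2l11 (16.3%), and the forkhead motif GTAAACA in 2, at Bbc3 and Bcl2l11 (3.65%). The p53 element, a pair of its palindromic 10-base units up to 13 bases apart with no mismatch allowed, was found in none of the 15, which do not include Pmaip1, and in 0.0731% of all promoters. A match or its absence describes the letters of this window only.

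Among the BH3-only genes, Pmaip1, which encodes Noxa, a partner above all of Mcl1, had the narrowest Spin1 peak when the widest promoter peak of each of the 10 was compared. It spanned chr18:66458106-66459701, a width of 1596 bp that reached 498 bp before and 1097 bp after the single start, touched exon 1 only, and covered 15.8% of the gene. That width was at the 21.1 percentile of the widest Spin1 promoter peaks of all genes that had such a peak. The MACS score, which is 10 times the −log10 of the peak's p-value and stops separating peaks near 3100, was 1289 for Spin1, the lowest top score among the 10 genes. Both ranks rest on a Bbc3 peak that lies within 1 kb of the last curated start of Bbc3 only. Near the RefSeq Select start of Bbc3, the widest Spin1 peak was 1520 bp with a score of 979, both below Pmaip1. The H3K4me3 peak of Pmaip1 was not narrow: it spanned chr18:66457573-66461281, was 3709 bp wide (61.7 percentile) and scored 3100. Spin1 therefore took up 43.0% of the H3K4me3 width at Pmaip1, where the median gene with both peaks had 64.9%. The protein-coding genes most like Pmaip1 in both widths and in Spin1 score, out of 11903 compared, were Col18a1, Tecr and Itpr3, with Spin1 widths of 1599, 1670 and 1621 bp and scores of 1259, 1322 and 1324.

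Bbc3, which encodes Puma, a BH3-only protein that binds all pro-survival members, had a different layout. It was the only 1 of the 10 genes with more than 1 Spin1 promoter peak, which 4.84% of all genes with Spin1 had. The first peak, chr7:16308784-16310303, scored 979 and held the first and middle of its 3 curated starts, and the second, chr7:16310314-16311121, scored 148 and held the last. The strongest, chr7:16311269-16314444, scored 3100 over 3176 bp and began 838 bp after the last curated start, inside the gene. The strongest Spin1 promoter peak held a curated start at 95.0% of genes with Spin1 and at 9 of the 10, all but Bbc3. The gaps between the 3 peaks were 10 and 147 bp, so that together they formed a nearly unbroken stretch of 5661 bp under a single H3K4me3 peak of 6499 bp (chr7:16308608-16315106, score 3100). Spin1 peaks covered 53.8% of the gene and 84.7% of the width of that H3K4me3 peak.

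Bcl2l11, which encodes Bim, a BH3-only protein that also binds all pro-survival members, had a Spin1 peak of 3668 bp at chr2:128125120-128128787 (86.7 percentile, score 3100). It contained both curated starts, which lie 1537 bp apart. The H3K4me3 peak, 7237 bp wide at chr2:128122205-128129441, reached 3833 bp before the RefSeq Select start, the longest upstream reach of the 10. The Spin1 peak reached 918 bp before the start.

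Bid, the BH3-only protein that caspase 8 cleaves, and Bad, the BH3-only protein that survival kinases phosphorylate, were closer to the typical gene. At Bid the Spin1 peak was 2229 bp wide (chr6:120915455-120917683, 47.0 percentile) with a score of 2122, and H3K4me3 was 3481 bp wide (chr6:120914545-120918025, 55.7 percentile). At Bad, Spin1 was 2848 bp wide (chr19:6940646-6943493, 69.9 percentile, score 3100) and H3K4me3 3604 bp (chr19:6940100-6943703, 59.0 percentile). Bad was the only gene of the 10 whose Spin1 peak reached farther before the RefSeq Select start, 1916 bp, than after it, 931 bp. Bad has 2 curated starts, 701 bp apart, and the RefSeq Select start is the inner one. Measured from the outer start, the same peak reached farther after it than before. That peak also lay at the promoter of Gpr137, so it cannot be assigned to Bad alone. Over all genes with Spin1, 31.1% shared the promoter peak with another gene, as 2 of the 10 did.

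The other gene with a shared peak was Bak1, whose Spin1 peak was also at a promoter of Ggnbp1. Bak1 and Bax encode the pore-forming effectors, and Bax had the wider peaks of the pair. At Bak1, Spin1 was 2142 bp wide (chr17:27026987-27029128, 43.3 percentile, score 3100) and H3K4me3 2562 bp (chr17:27026578-27029139, 30.2 percentile). This H3K4me3 peak was the narrowest of the 10 and the only one below the median of all genes with an H3K4me3 promoter peak. The Spin1 peak took up 83.6% of it, the highest ratio among the 10 when the widest Spin1 peak of each gene is used. With all promoter peaks summed, Bbc3 was higher at 84.7%. With every Spin1 peak under the H3K4me3 promoter peak counted, Bax was the highest, with 85.8% covered. At Bax, Spin1 was 3812 bp wide (chr7:45463495-45467306, 88.8 percentile, score 3100) and H3K4me3 5196 bp (chr7:45462633-45467828, 84.8 percentile). Bax is a short gene of 5204 bp, and Spin1 peaks covered 88.7% of it, the largest covered share of the 10. The promoter peak alone touched 5 of its 6 exons. Part of the covered share came from the Spin1 peak at the promoter of Ftl1, which ran into the end of Bax. Another part came from a weak Spin1 peak of 648 bp in the gene body (score 114). The first rank depends on these peaks. The promoter peak alone reached 3403 bp into Bax, a smaller share of the gene than the 67.4% at Mcl1.

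Of the pro-survival genes, Bcl2l1 and Mcl1 held the 2 widest single Spin1 promoter peaks and the 2 widest H3K4me3 peaks of the 10, and Bcl2 did not. At Bcl2l1, which encodes Bcl-xL, Spin1 spanned 5134 bp (chr2:152826997-152832130, 97.2 percentile, score 3100), the widest single promoter peak of the 10, and H3K4me3 8053 bp (chr2:152824169-152832221, 96.8 percentile). The 3 starts under that Spin1 peak spread over 3239 bp. At Mcl1, a short-lived pro-survival protein, Spin1 spanned 4178 bp (chr3:95657549-95661726, 92.7 percentile, score 3100) around a single start, and H3K4me3 8112 bp (chr3:95657462-95665573, 96.9 percentile). The H3K4me3 peak covered 100% of the 4459 bp Mcl1 gene and Spin1 covered 67.4% of it.

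Bcl2 itself, the founding pro-survival gene, stood nearer to Pmaip1, Bak1 and Bid than to Bcl2l1 and Mcl1 in the width of its Spin1 promoter peak. Its Spin1 peak was 1899 bp wide (chr1:106713216-106715114, 33.2 percentile) and scored 2250, under an H3K4me3 peak of 4530 bp (chr1:106710922-106715451, 76.9 percentile). The ratio of 41.9% was the lowest of the 10 when promoter peaks alone were counted. A second, weaker Spin1 peak of 1215 bp (chr1:106711771-106712985, score 235) lay just inside the gene under the same H3K4me3 peak, outside the promoter window. With both Spin1 peaks counted, 68.7% of that H3K4me3 peak was covered, beside 43.0% at Pmaip1, so the low rank of Bcl2 depends on the window. Spin1 peaks covered 1.3% of the 176115 bp gene.

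Taking the 10 genes as a list, the widest Spin1 promoter peaks ranged from 1596 to 5134 bp with a median of 3012 bp, beside 2306 bp over all 13267 genes with such a peak, and 6 of the 10 were above that median. Bbc3 was among the 6 only through its 3176 bp peak, which holds no curated start. With RefSeq Select starts only, its widest peak was 1520 bp with a score of 979, and the median of the 10 was 2538 bp. The BH3-only median and the score of 3100 at Bbc3 counted below also rest on the 3176 bp peak. H3K4me3 peaks ranged from 2562 to 8112 bp with a median of 4863 bp, beside 3253 bp over 16207 genes, and 9 were above it. Against the median of 3558 bp over the genes with both peaks, Bid at 3481 bp was below as well as Bak1. By role, the Spin1 medians were 4178 bp for the 3 pro-survival genes, 2977 bp for the 2 effectors and 2848 bp for the 5 BH3-only genes, and the ranges of the 3 roles overlapped. Spin1 scored 3100 at 7 of the 10 and under it at Pmaip1, Bid and Bcl2, where 49.0% of all genes with Spin1 reached 3100. H3K4me3 scored 3100 at all 10, where 88.2% of genes with H3K4me3 did. Measured from the RefSeq Select start, Spin1 reached farther into the gene than before it at 9 of the 10 genes (76.1% of all) and H3K4me3 at 8 (77.3% of all). Widths and scores rise with sequencing depth, which is unknown for these libraries, so they are not amounts of protein or mark. The ratio of Spin1 to H3K4me3 width at a gene depends on the depth of both libraries, and only its rank among genes is read here. The number of curated starts per gene also widens the promoter searched.

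**Figure D2:**
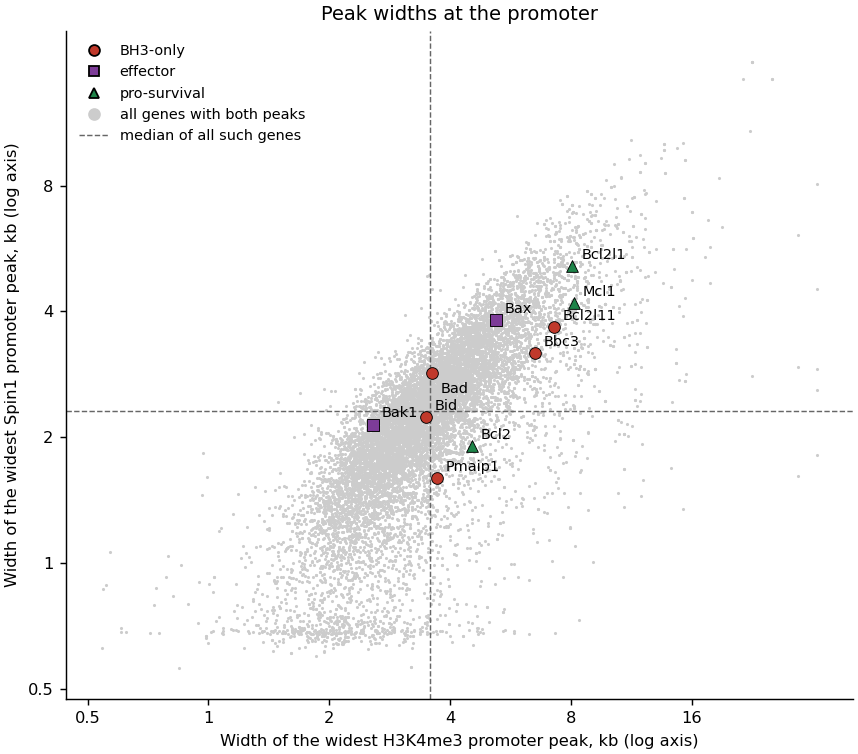
Width of the widest Spin1 promoter peak (vertical, kb, log axis) against that of the widest H3K4me3 promoter peak (horizontal, kb, log axis) for 13246 genes with both (grey) and the 10 Bcl2 family genes (circles BH3-only, squares effectors, triangles pro-survival), with dashed lines at the medians of 2308 and 3558 bp of these genes. Bcl2l1 and Mcl1 lie at the upper right, and Pmaip1 and Bcl2 below the horizontal line but to the right of the vertical one.

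With the genes' own promoters included, the loci held from 1 to 10 Spin1 peaks and from 3 to 13 H3K4me3 peaks. Of the 44 Spin1 peaks, 12 were at the promoters of the 10 genes, 20 at promoters of other genes, and 12 touched no curated promoter. Of the 70 H3K4me3 peaks, 10, 24 and 36 fell in these classes. The Bad locus held 10 Spin1 peaks (98.9 percentile of genes with both marks), 8 of them at promoters of neighbours such as Esrra, Plcb3 and Vegfb. At Pmaip1 and Bcl2l11 the promoter peak was the single Spin1 peak in the whole locus, as at 19.8% of genes with both marks. The median gene with both had 3 Spin1 peaks in its locus. The counts follow the flank: with 25 kb instead of 50 kb, 19 rather than 32 Spin1 peaks lay outside the promoters of the 10 genes.

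The 12 Spin1 peaks that touched no promoter were weak for the most part, with a median score of 254 and a median width of 1168 bp. Of these, 9 overlapped an H3K4me3 peak, where 72.6% of all such Spin1 peaks did. At Bbc3, a pair lay upstream of the gene, with centers 14097 bp (chr7:16294684-16296289, score 725) and 9811 bp (chr7:16299027-16300517, score 307) before the RefSeq Select start, both wholly under H3K4me3 peaks that scored 3100. The Bcl2l1 gene body held 2, 9379 bp (chr2:152820666-152822011, score 557) and 38067 bp (chr2:152792310-152792990, score 119.5) after the start, of which the first overlapped H3K4me3 and the other did not. The remaining 2 without H3K4me3 were in the flanks of Mcl1 (chr3:95650803-95651465, score 109) and Bid (chr6:120855488-120856244, score 148). Only 2 of the 12 scored 3100: the peak at the 3′ end of Bad, chr19:6950018-6953393, and a peak in the flank of Bcl2l1, chr2:152726641-152729846, which lay nearer to Id1. When only the peaks above the median score of each list were kept, these 2 were all that was left of the 12, and 7 of the 36 H3K4me3 peaks were left.

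H3K4me3 without Spin1 was the commoner state away from promoters. Of the 36 H3K4me3 peaks that touched no promoter, 8 overlapped a Spin1 peak, beside 17.6% of all such H3K4me3 peaks. Their median score was 208. Among the stronger ones without Spin1 was a peak downstream of Pmaip1 (chr18:66470543-66472174, center 12754 bp after the start, score 1508), one deep in the Bcl2 gene (chr1:106628864-106631068, 84324 bp after the start, score 950), one after the end of Mcl1 (chr3:95665916-95669112, score 2416) and one downstream of Bid (chr6:120865129-120866602, score 1614). A region with no Spin1 peak in the list is one where none passed the authors' threshold, which does not show that Spin1 was absent.

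**Figure D3:**
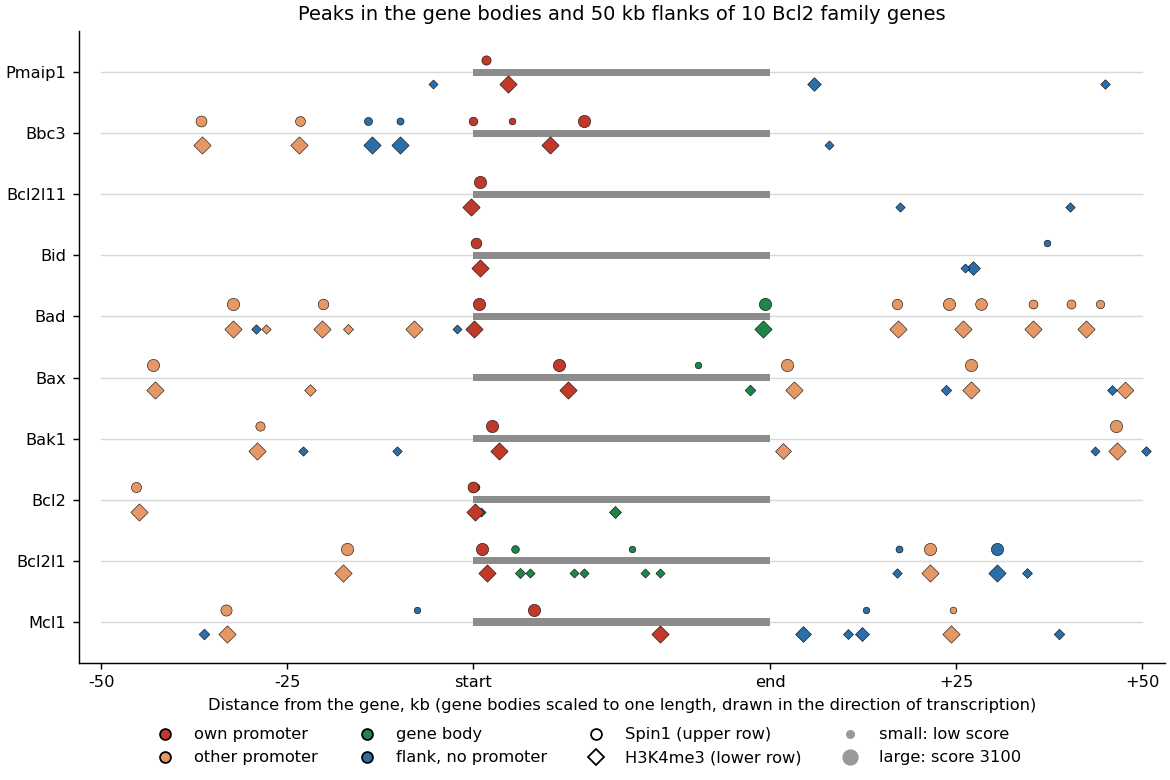
Centers of the Spin1 peaks (circles, upper row) and H3K4me3 peaks (diamonds, lower row) in each gene and its 50 kb flanks, with distance from the gene in kb and gene bodies scaled to one length; color gives the class and size the score. Pmaip1 and Bcl2l11 have 1 circle each, Bad has 10, and the 2 gene-body symbols nearest the start of Bcl2 are partly covered by those of its promoter.

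A wider list of 41 genes of the same pathway was read in the same way. Both peaks were at the promoters of 29 of the 41, 5 had H3K4me3 only and 7 had neither, where 50.6% of all curated genes and 56.7% of the protein-coding ones had both. All 12 genes downstream of the mitochondria, such as Apaf1, Cycs and Casp9, which build the apoptosome, had both. Of the 9 known regulators of BH3-only genes, 7 had both, with a median Spin1 width of 4518 bp. The widest of the whole list were Ddit3 with 5635 bp, Foxo3 with 4994 bp and Trp53 with 4838 bp, all transcription factors of stress or growth factor withdrawal. The exceptions among the regulators were Trp63 and Trp73, the relatives of p53, which had H3K4me3 only, with widths of 591 and 4776 bp. On the death receptor route upstream of Bid, 5 of 6 genes had both, and the receptor gene Fas had H3K4me3 only.

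The other Bcl2 homologues had both peaks at 5 of 14 promoters, beside the same 50.6% of all curated genes and 56.7% of protein-coding ones: Bcl2l2, Bok, Bmf, Bcl2l12 and Bcl2l13. The BH3-only genes Bik and Hrk had an H3K4me3 peak with a score of 3100 and no Spin1 peak. Bcl2l10, Bcl2l14, Bcl2l15 and the 4 Bcl2a1 genes had neither. The Bcl2a1 genes are near-identical copies, at which reads may not map uniquely, so their lack of peaks is uncertain. Among the BH3-only genes of both lists, Spin1 was thus called at Pmaip1, Bbc3, Bcl2l11, Bid, Bad and Bmf and not at Bik or Hrk.

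**Figure D4:**
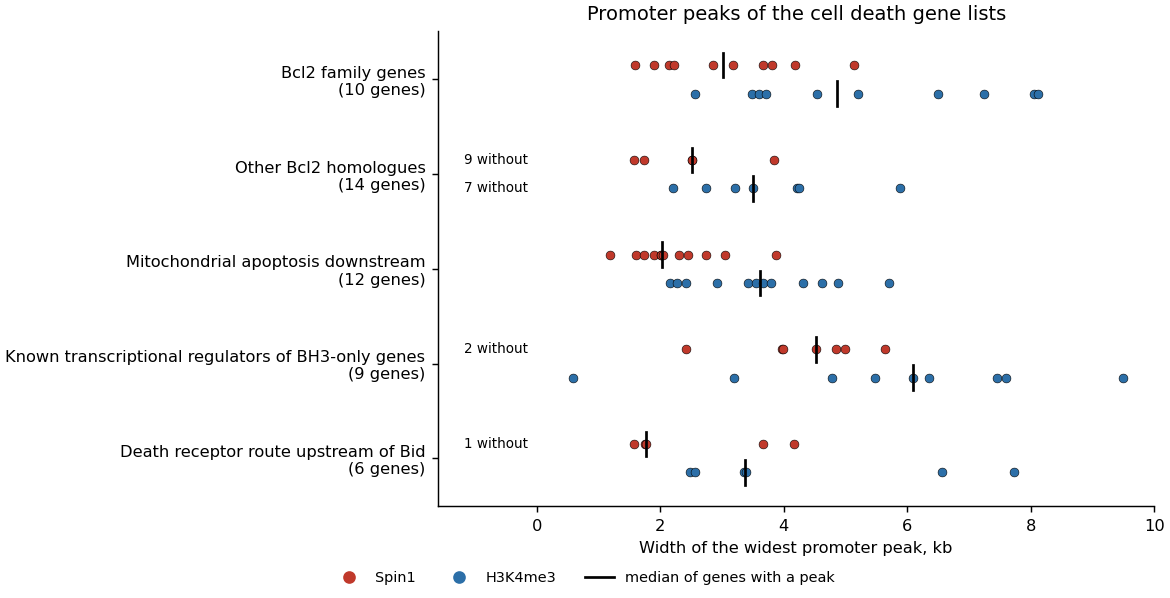
Width of the widest promoter peak (kb) for each gene of the Bcl2 family and of the 4 pathway lists, Spin1 in red and H3K4me3 in blue, with a black bar at the median of the genes that have a peak and the number without one at the left. The regulators have the widest Spin1 median, 4518 bp, and 9 of the 14 other homologues have no Spin1 peak.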

How the data were processed

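ChIP-seq peak lists of primary myoblasts were used, 1 for Spin1 and 1 for H3K4me3. According to the study's methods and the submitters' processing notes, the authors aligned reads to mm10 with Bowtie 2 at default settings, called peaks with MACS 1.4.2 against an input library and removed peaks above a false discovery rate of 1%. The deposited score is 10 times the −log10 of the peak's p-value, and 30.9% of Spin1 and 45.2% of H3K4me3 scores were 3100 or more, so the score ranks no peaks there. The files hold no counts or coverage, and depth is unknown, which leaves the precision of widths and scores unknown. The input library entered the calls but, like the RNA-seq data, was not analysed here.

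Curated transcripts (NM and NR) of RefSeq annotation release 108.20200622 (GRCm38.p6, 45756 transcripts) were intersected with the peaks in Python 3.11.15 with pandas 2.3.3. A peak counted when it overlapped a window by at least 1 bp, and the widest promoter peak gave a gene's width. Percentiles are the share of genes with such a peak whose value was lower or equal. A locus peak was put first in the class of the own promoter, then of other promoters, then of gene body or flank. Coordinates are 1-based. Code was tested on simulated peaks. No p-value was computed, since each antibody had 1 library. The members, the pathway list and the marker lists were chosen with earlier results of these data known. The result of 1 marker list is not reported here. All members were named. From the pathway list, the genes without Spin1 and the 3 widest were named, together with examples, neighbours with a promoter peak in a member locus, and the 3 genes nearest Pmaip1 by Euclidean distance in log2 widths and Spin1 score. Examples and the strongest peaks without a promoter were picked after their values were seen. Alternatives were other windows, transcripts, scores, flanks and definitions of width.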

Additional observations from a re-analysis of the deposited data

How the results depend on the processing

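Over 12 results, 62 alternatives were computed, of which 40 left the value within 1.5 times a count, or within the 95% Wilson interval of a share, and 22 moved it. All 10 promoters kept both peaks with windows of 0.5 kb or 2 kb, with the window from 1 kb before to 0.1 kb after the start, with RefSeq Select transcripts only, with a score of at least 100 and with the upper 50% of peaks. With the peak center in the window, 6 genes had H3K4me3 and 5 had both. The share of all genes with both peaks was 51.3% with 2 kb, 49.6% with the window to 0.1 kb, 49.9% with RefSeq Select, 38.1% with the upper 50% of peaks, 39.7% by peak center and 56.7% over protein-coding genes. Outside the promoters of the 10 genes, Spin1 and H3K4me3 peaks numbered 19 and 37 with flanks of 25 kb, 65 and 105 with 100 kb, and 18 and 28 with the upper 50% of peaks. Peaks that touched no promoter numbered 23 and 56 with 100 kb flanks and 2 and 7 with the upper 50% of peaks. The median Spin1 width was 3258 bp with the sum of all promoter peaks and 2538 bp with RefSeq Select only. Merging peaks less than 200 bp apart, chosen after seeing the data, gave 3258 bp for Spin1 and 5514 bp for H3K4me3. Any change of a median width counts as moved, since no replicate gives its error. Counting GENCODE starts as promoters too, also chosen after seeing the data, left 9 Spin1 and 29 H3K4me3 peaks that touched none. No paired analysis was possible because the peak lists hold 1 library per antibody and the samples with shared replicate numbers were not analysed here.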

Other observations

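The peak at the 3′ end of Bad, with a score of 3100 in both libraries and widths of 3376 bp for Spin1 and 4035 bp for H3K4me3, lay 7456 bp from the nearest curated RefSeq start, and GENCODE M21 places transcript starts of Bad within 1 kb of it. In the far flank of Bcl2l1, the Spin1 peak 6405 bp from Id1, which encodes an inhibitor of the myogenic factors, was 3206 bp wide and the H3K4me3 peak there 3199 bp, with 99.4% of the Spin1 peak covered. Both values were noticed after the loci had been listed and were not tested.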
